A study of Mus musculus with 12 samples.

Results

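The cytosolic ribosomal protein genes encode the proteins of the small and the large subunit of the ribosome that translates nuclear mRNA. Members were the symbols of the form Rps or Rpl with a number, together with Rpsa, Rplp0, Rplp1 and Rplp2, that had a mean of at least 1 log2 CPM (the log2 of library-scaled counts, CPM) over the 12 libraries. Of the 28116 symbols in the expression table, 87 matched the names and 82 passed the minimum: 31 small-subunit genes, 46 large-subunit genes and 5 paralogues (Rpl3l, Rpl22l1, Rpl7l1, Rps27l and Rps4l). Rps10, at 1.76 log2 CPM, was the member nearest to the minimum, followed by Rps4l at 2.80. Rps3a2, at 0.83, lay just outside it, with Rps3a3, Rpl6l, Rpl39l and Rpl32l further below. All 82 members also passed the filter on low values, so none is missing from the counts given here.

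RNA came from tibialis anterior muscle of 4-month-old C57BL/10ScSn-Dmdmdx/J mice, the mdx strain, which lacks functional dystrophin and models Duchenne muscular dystrophy. Every muscle had been injured with cardiotoxin, a venom component that kills muscle fibres and sets off regeneration. The toxin was given with anti-miR106b, which blocks the microRNA miR-106b, or with the control anti-miR-Scrambled. Muscles were collected 3 or 7 days later, which gives 4 groups of 3 animals, named here by inhibitor and day. All groups are injured dystrophic muscle and none is uninjured or has intact dystrophin. The study asked how inhibition of miR-106b changes expression while muscle regenerates. Libraries held 28857739 to 42825246 reads on genes, and the lowest value of a member rested on 45 reads (Rps10). Each of the 12 mature fibre markers examined was detected in every library.

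Ribosomal proteins are needed in near-equal amounts, and their mRNAs are abundant in growing and dividing cells. Many of these mRNAs begin with a C followed by a run of pyrimidines, the 5′ terminal oligopyrimidine or TOP tract, through which the mTOR pathway controls how well they are translated. Striated muscle also expresses Rpl3l, a paralogue of Rpl3, which is known to decline when muscle is damaged or grows. Rpl22l1, Rps27l and Rpl7l1 are broadly expressed relatives of Rpl22, Rps27 and Rpl7.

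The inhibited microRNA is printed first, with its seed (bases 2 to 8) in capitals, because the seed decides which transcripts it pairs with.
miR-106b-5p: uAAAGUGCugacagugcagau
This is the RefSeq mature sequence, at chr5:138165787-138165807 on the minus strand of GRCm38.p6. The longest annotated 3′ UTRs were searched on the transcribed strand for GCACTTT, the match to the seed, and for GCACTTTA, the same match followed by A. None of the 81 members with an annotated 3′ UTR held the 8-base site, against 576 of 12955 tested genes (4.45%). The 7-base match, which the longer site includes, was present in 4 members (Rpl9, Rps12, Rps15a and Rps20; 4.94%) and in 14.95% of tested genes. The UTRs of the members were short, with a median of 224 bases against 1370 for tested genes, and a match is a description of letters, not of binding.

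The start sites of 61 members were in the RefSeq table of starts, which left 21 members without a sequence. A tract was a C followed by at least 6 further C or T, beginning within 20 bases of an annotated start on the transcribed strand. It was present at any start in 35 of the 61 (57.4%) and in 25.3% of 10584 other tested genes. Of all genes in the table of starts, 23.6% had one. The 30 bases around the start are shown for 8 members with a tract, in capitals, and for 4 of the 26 without one, which are wholly in lower case. Each run has 15 bases before the start and continues into the transcript.
Rps6: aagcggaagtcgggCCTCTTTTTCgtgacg
Rps18: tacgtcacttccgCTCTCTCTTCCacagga
Rps24: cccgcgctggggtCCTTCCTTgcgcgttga
Rps27: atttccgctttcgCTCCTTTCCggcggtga
Rpl28: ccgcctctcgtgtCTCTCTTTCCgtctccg
Rplp2: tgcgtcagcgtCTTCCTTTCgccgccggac
Rpl22l1: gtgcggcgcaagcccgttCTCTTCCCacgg
Rps10: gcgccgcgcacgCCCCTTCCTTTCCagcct
Rpl3l: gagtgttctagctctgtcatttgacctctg
Rpl12: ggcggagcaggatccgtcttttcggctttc
Rpsa: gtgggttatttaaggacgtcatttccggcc
Rps4x: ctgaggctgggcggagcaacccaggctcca
On GRCm38.p6 these lie as follows: Rps6 at chr4:86857353-86857382 (minus strand), Rps18 at chr17:33955651-33955680 (minus strand), Rps24 at chr14:24490663-24490692 (plus strand), Rps27 at chr3:90213634-90213663 (minus strand), Rpl28 at chr7:4792950-4792979 (plus strand), Rplp2 at chr7:141447636-141447665 (plus strand), Rpl22l1 at chr3:28805493-28805522 (plus strand), Rps10 at chr17:27635230-27635259 (minus strand), Rpl3l at chr17:24727811-24727840 (plus strand), Rpl12 at chr2:32961697-32961726 (plus strand), Rpsa at chr9:120127751-120127780 (plus strand) and Rps4x at chrX:102189377-102189406 (minus strand). A further annotated start of Rps24 has no tract. The second annotated start of Rpl3l has no tract either, and neither start of Rpl22 has one. The starts of Rpl10, Rplp0, Rpl41, Rps16 and Rps3a1 also lack a tract in this window. Annotated starts can differ from the base where transcription begins, so a tract outside this window would be missed.

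Per kilobase of transcript, Rplp1 was the most abundant member, with a mean of 10.68 log2 CPM per kb over the 12 libraries. Rps12 followed at 9.75 and Rps15 at 9.64. The 3 lowest members were Rps10 at 2.39, Rps4l at 2.89 and Rpl13a at 3.94 log2 CPM per kb. Rps10, Rpl13a and Rpl24 share over 50% of their transcript with another annotated gene on the same strand, by 70.8%, 59.3% and 71.5%, and reads in such stretches may have been assigned elsewhere or dropped. Genes on the opposite strand overlap 68.3% of the Rpl35 transcript, 55.4% of Rpl23a, 46.6% of Rpl5, 34.7% of Rpl30 and 28.8% of Rpl22l1, among others. Strandedness is not given, so the same limit may hold for these members, which are named here for their overlap. Rps4l is annotated as a transcribed processed pseudogene, so its reads cannot be told apart with certainty from those of Rps4x. The table also lists 180 symbols of ribosomal protein pseudogenes, which were not members; they held between 0.237 and 0.399 reads for every 100 reads on the members in each library.

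At day 3 the muscles that received anti-miR-106b had a larger share of their reads on ribosomal protein genes. Reads on the 82 members were 3.02%, 2.71% and 2.84% of the library in the scrambled muscles and 4.43%, 4.57% and 4.50% in the anti-miR-106b muscles. At day 7 the shares were 1.54%, 1.69% and 1.61% in scrambled and 1.66%, 1.60% and 1.76% in anti-miR-106b muscles. The 3 anti-miR-106b day 3 libraries were the highest of the 12, and the 6 day 7 libraries, whose groups overlapped, were the lowest. Group means were 2.85% ± 0.16 and 4.50% ± 0.07 at day 3 and 1.61% ± 0.07 and 1.67% ± 0.08 at day 7 (SD, n = 3 each). This share was not tested, and an exact permutation test of 3 against 3 cannot go below 0.1. Large-subunit genes held 1.27 to 1.32 times the reads of small-subunit genes in every library, so both subunits moved together. Because these are whole muscles, more cells with much ribosomal protein mRNA and more such mRNA per cell cannot be told apart here. A share of reads is also relative, so less of other transcripts cannot be told apart from these either. The 10 highest genes of a library held 17.3% ± 0.75 of reads in scrambled and 12.0% ± 0.18 in anti-miR-106b muscles at day 3 (SD, n = 3). Their part in the share was not tested.

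**Figure D1:**
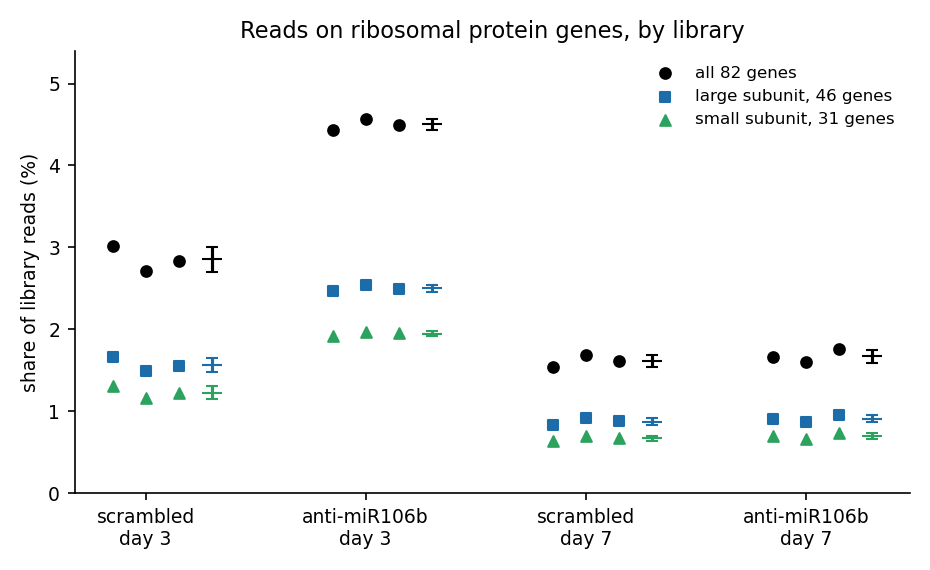
Share of each library's reads on ribosomal protein genes (y axis, percent), for all 82 genes, the 46 large-subunit genes and the 31 small-subunit genes, in the 4 groups (x axis). Each point is a library and the bars beside them give the mean ± SD (n = 3). The anti-miR-106b day 3 libraries, at 4.43% to 4.57%, lie above the scrambled day 3 libraries at 2.71% to 3.02%, and all day 7 libraries lie between 1.54% and 1.76%.

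Gene by gene, the inhibitor difference at day 3 was small in size and nearly uniform. Of the 82 members 79 rose, Rpl3l fell, and Rps27l and Rps4l did not pass the test (limma with Benjamini-Hochberg adjustment over 14063 genes, adjusted p under 0.05). Among all tested genes 16.3% were called higher and 19.4% lower in this comparison. The median difference of the members was 0.47 on the log2 scale, 1.39-fold, against 0.01 for all tested genes. The quartiles of the members were 0.38 and 0.53, an interquartile range of 0.14 against 0.46 for all tested genes. Small-subunit genes had a median of 0.46 (31 of 31 higher) and large-subunit genes 0.49 (46 of 46 higher). In 81 members every anti-miR-106b library exceeded every scrambled library, and in Rpl3l every one was lower. Among all tested genes 31.2% had separate groups in the first direction and 29.3% in the other.

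Markers of several cell types also differed, at day 3 and over time, and their part in these results was not tested. Mature fibre markers moved opposite to the family, and called markers of macrophages, dividing cells and regenerating fibres moved the same way. These counts stand against 16.3% of all tested genes called higher and 19.4% lower at day 3. Over time these shares were 32.9% and 35.3% in scrambled and 37.9% and 40.8% in anti-miR-106b muscles. The summed level of the 12 mature fibre markers was 83153 to 101750 CPM in scrambled and 52317 to 57451 in anti-miR-106b muscles at day 3, and 170930 to 186610 and 162980 to 175670 at day 7. None was at 0; 11 of 12 fell with the inhibitor at day 3, and 12 and 11 of 12 rose over time in scrambled and anti-miR-106b muscles. The 10 macrophage markers summed to 3245 to 3308 and 4535 to 4959 CPM at day 3 and to 398 to 633 and 429 to 669 at day 7. Of these 6 rose with the inhibitor at day 3 and all 10 fell over time in both arms, with none at 0. The 10 markers of dividing cells summed to 155 to 180 and 217 to 247 CPM at day 3 and to 29.7 to 51.2 and 29.7 to 45.8 at day 7, with 3 higher at day 3 and all 10 lower over time. The 10 markers of regenerating fibres summed to 3135 to 4089 and 5165 to 5641 CPM at day 3 and to 743 to 2134 and 1162 to 1476 at day 7, with 6 higher at day 3 and 9 lower over time in each arm. None of the markers of these 4 lists passed at day 7. Other marker lists did not all follow the family. Of 7 fibroblast markers 1 rose at day 3 (median -0.14), and 5 fell over time in each arm, with 1 higher in anti-miR-106b muscles. Of 6 endothelial markers 2 rose at day 3, and 6 and 4 rose over time in scrambled and anti-miR-106b muscles. Of 4 adipocyte markers 1 fell at day 3, and 1 and 4 rose over time. Of 6 satellite cell and myoblast markers 3 rose at day 3, and 5 fell and 1 rose over time in each arm. Of 5 erythroid markers 1 rose at day 3, and 0 and 1 fell over time. Of 4 tested T and NK cell markers 1 rose at day 3, 3 fell over time in each arm and 1 rose in scrambled muscles. Of 3 tested neutrophil markers 0 passed at day 3, and 1 and 3 fell over time. The 1 tested B cell marker rose at day 3 and fell over time in each arm. The rest of these immune lists missed the filter on low values or were absent. Reads on mitochondrially encoded genes were 7.64% ± 0.11 and 4.81% ± 0.02 of the library at day 3 and 9.59% ± 1.2 and 10.2% ± 0.39 at day 7 (SD, n = 3, scrambled then anti-miR-106b).

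The members with the smallest p at day 3 encode proteins of both subunits. Rpl12, a protein at the base of the stalk, measured 8.37, 8.28 and 8.30 log2 CPM in scrambled and 8.92, 9.0 and 8.97 in anti-miR-106b muscles. The anti-miR-106b libraries lay above all scrambled ones, a difference of 0.65 ± 0.07 (SE) or 1.57-fold (limma, adjusted p = 4.83e-05). Rps19, which is needed to mature the small subunit and is mutated in Diamond-Blackfan anaemia, measured 7.84, 7.71 and 7.80 against 8.46, 8.54 and 8.33 log2 CPM. Its difference was 0.66 ± 0.08 (limma, adjusted p = 9.89e-05). Rps24, another Diamond-Blackfan anaemia gene, rose by 0.59 ± 0.08, Rpsa of the small subunit by 0.62 ± 0.08 and Rps4x, the X-linked S4 gene, by 0.51 ± 0.07. Rpl14 rose by 0.51 ± 0.07, Rpl34 by 0.51 ± 0.07 and Rpl10, which joins the large subunit late in its assembly, by 0.47 ± 0.06. Adjusted p for these 6 genes was 0.000141 to 0.000195 (limma).

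The 3 proteins of the stalk, which recruits translation factors to the large subunit, moved with the rest. Rplp0 rose by 0.41 ± 0.08, Rplp1 by 0.56 ± 0.08 and Rplp2 by 0.44 ± 0.08 (limma, adjusted p = 0.00119, 0.00022 and 0.000897). Rpl5 and Rpl11 assemble with 5S rRNA into a particle that can also bind Mdm2, the regulator of p53. Rpl5 measured 7.88, 7.81 and 7.85 log2 CPM in scrambled muscles and 8.38, 8.38 and 8.33 in anti-miR-106b muscles, a rise of 0.52 ± 0.06 with no overlap (limma, adjusted p = 0.00011). Rpl11 rose by 0.59 ± 0.08 (limma, adjusted p = 0.000146).

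Rpl3 and Rpl3l moved in opposite directions and were the extremes of the family at day 3. Rpl3 (chr15:80077791-80091868, minus strand, GRCm38, GENCODE M21) encodes a large-subunit protein that reaches towards the peptidyl transferase centre, and Rpl3l (chr17:24727820-24736143, plus strand) encodes its striated-muscle counterpart. Rpl3 measured 8.59, 8.38 and 8.45 log2 CPM in scrambled and 9.29, 9.27 and 9.31 in anti-miR-106b muscles. Rpl3l measured 8.08, 8.43 and 8.27 in scrambled and 7.41, 7.35 and 7.27 in anti-miR-106b muscles. Neither gene had overlapping groups: Rpl3 was higher with the inhibitor and Rpl3l was lower. Rpl3 rose by 0.82 ± 0.12, 1.76-fold (limma, adjusted p = 0.000232), and Rpl3l fell by 0.92 ± 0.10, to 0.53 of its scrambled level (limma, adjusted p = 5.32e-05). Rpl41, chosen after its values were seen as the member next to Rpl3 in size, rose by 0.71 ± 0.12 (limma, adjusted p = 0.000636).

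The 3 smallest positive differences of the family belonged to the paralogues Rpl7l1, Rps27l and Rpl22l1. Rpl7l1 rose by 0.23 ± 0.06 (limma, adjusted p = 0.0138) and Rpl22l1 by 0.26 ± 0.07 (limma, adjusted p = 0.0156). Rps27l, a p53-induced relative of Rps27, differed by 0.25 ± 0.10 (limma, adjusted p = 0.0625). Rps4l differed by 0.30 ± 0.14 (limma, adjusted p = 0.105). Both missed the threshold, although their 2 groups did not overlap. Fitted on the 2 day 3 groups alone they passed (limma, adjusted p = 0.00255 for Rps27l and 0.0191 for Rps4l). They also passed with scaling to total counts (limma, adjusted p = 0.00101 and 0.00607). Rps27l passed with quantile normalization (limma, adjusted p = 0.0122) and without scrambled day 7 replicate 2 (0.0236) or 3 (0.0326). Rps4l passed with voom weights on recovered reads (limma, adjusted p = 0.0378) and without anti-miR-106b day 7 replicate 3 (0.0459). The call for Rpl22l1 was lost without scrambled day 3 replicate 1 (limma, adjusted p = 0.0648) or without anti-miR-106b day 3 replicate 3 (0.0609).

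**Figure D2:**
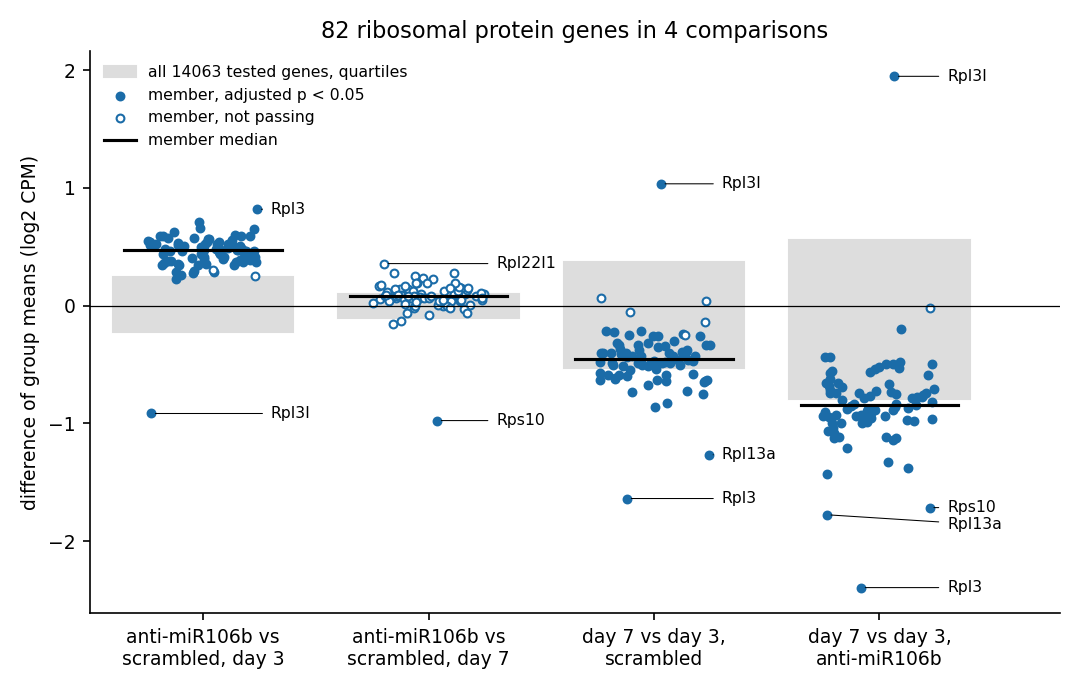
Differences of group means (y axis, log2 CPM) for the 82 ribosomal protein genes in 4 comparisons (x axis). Each point is a gene, filled where limma's adjusted p is under 0.05; black lines are member medians and grey boxes span the quartiles of all 14063 tested genes. The medians are 0.47 and 0.08 for the inhibitor at day 3 and day 7, and -0.45 and -0.84 for day 7 against day 3 in scrambled and anti-miR-106b muscles, with Rpl3 and Rpl3l at opposite extremes in 3 of the comparisons.

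At day 7 the differences between inhibitor and control were smaller and 81 members did not pass. No member rose and 1 fell, Rps10, against 0.00711% of all tested genes called higher and 0.0569% lower (limma with Benjamini-Hochberg adjustment). At an unadjusted p under 0.05 there were 14 members and 1580 of all tested genes. The median of the members was 0.08 on the log2 scale, against 0.01 for all tested genes, and 70 of the 82 were above 0. This median was 0.021 without anti-miR-106b day 7 replicate 3, 0.053 without scrambled day 7 replicate 3, 0.129 without anti-miR-106b day 7 replicate 2, 0.133 without scrambled day 7 replicate 2 and 0.025 with quantile normalization. The number of calls over all tested genes, 9, also rested on single libraries: it was 457 without scrambled day 7 replicate 1, 70 without anti-miR-106b day 7 replicate 2 and 0 without scrambled day 7 replicate 2. In 6 members (Rpl22l1, Rpl30, Rpl38, Rpl7a, Rps13 and Rps3a1) all anti-miR-106b libraries exceeded all scrambled libraries, or 7.32%, against 5.18% of all tested genes, and in Rps10 all were lower, against 5.69% of all tested genes. Those 6 are named for this separation, after their values were seen. Rpl22l1 had the largest positive difference, 0.36 ± 0.07, and missed the threshold (limma, adjusted p = 0.0872).

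Rps10 (chr17:27630418-27636669, minus strand, GRCm38), which encodes a small-subunit protein, was the member called at day 7. It measured 1.65, 1.70 and 1.92 log2 CPM in scrambled and 0.91, 0.69 and 0.74 in anti-miR-106b muscles, all 3 of which lay below the scrambled range. The gene fell by 0.98 ± 0.13, to 0.508 of the scrambled level (limma, adjusted p = 0.0198). These levels rest on 104 to 119 reads per scrambled library and 45 to 58 reads per anti-miR-106b library. At day 3 the same gene had measured 2.03, 1.91 and 2.08 against 2.34, 2.50 and 2.64 log2 CPM, a rise of 0.49 ± 0.13 (limma, adjusted p = 0.00951). The fall at day 7 did not pass when only the 2 day 7 groups were fitted (limma, adjusted p = 0.224), with the replicate number as a block (0.0572), without scrambled day 7 replicate 2 (0.0554) or without anti-miR-106b day 7 replicate 3 (0.057). Its processed copies Rps10-ps1 and Rps10-ps2 had means of -0.75 ± 0.23 and -0.66 ± 0.67 log2 CPM in scrambled day 7 muscles and -0.84 ± 0.43 and -0.71 ± 0.36 in anti-miR-106b day 7 muscles (SD, n = 3). Given these copies and the overlap with the readthrough gene RPS10-NUDT3, the level of Rps10 itself is uncertain.

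Whether the inhibitor difference changed between the days was tested directly. Of the 82 members 54 had a difference that was lower at day 7 than at day 3 and passed, and for 1, Rpl3l, the change was upward (limma interaction term with Benjamini-Hochberg adjustment). Among all tested genes 9.07% passed downward and 13.2% upward. The median change was -0.39 for the members and -0.0027 for all tested genes, and the inhibitor difference was larger at day 3 in 80 of the 82. Rps10 changed by -1.47 ± 0.18 (limma, adjusted p = 0.000577) and Rpl3l by 0.91 ± 0.15 (limma, adjusted p = 0.00155). Rpl14 (-0.53 ± 0.09), Rps6 (-0.45 ± 0.08) and Rps24 (-0.58 ± 0.11) had the next smallest p. Rps6 is the small-subunit protein phosphorylated by the S6 kinases. Among the 27 members that did not pass were Rpl22l1 (0.10 ± 0.11), Rps27l (-0.06 ± 0.14) and Rpl7l1 (-0.14 ± 0.09). Rpl13a (-0.51 ± 0.17) and Rps4l (-0.46 ± 0.20) also missed the threshold (limma, adjusted p = 0.0505 and 0.107), with changes further below 0 than the member median. Both passed in some other settings, among them scaling to total counts (limma, adjusted p = 0.0063 and 0.0118).

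How the libraries are scaled to each other moves all genes together, so the differences above hold relative to the scaling of the deposited values. With scaling to total counts instead, the median of all tested genes moved to 0.20 for the inhibitor at day 3, to -0.41 and -0.65 over time in scrambled and anti-miR-106b muscles, and to -0.22 for the change between days. Of the genes called, 45.7% were higher at day 3 in the deposited scaling and 78.8% with total counts. Over time these shares were 48.2% and 15.1% in scrambled and 48.2% and 18.6% in anti-miR-106b muscles, and 59.3% and 20.04% for the change between days. Scaling to total counts moves all genes of a library alike, so it leaves the median of the ribosomal protein genes minus that of all tested genes where it was, at 0.46 at day 3, -0.45 and -0.82 over time, and -0.39 for the change. Quantile normalization moved that value to 0.53 at day 3, to -0.84 and -1.33 over time in scrambled and anti-miR-106b muscles, and to -0.50 for the change. It also moved the split of calls over time in scrambled muscles to 60.7% higher, with a median of 0.14 for all tested genes.

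From day 3 to day 7 the family fell in both arms. In scrambled muscles 76 members fell and 1, Rpl3l, rose, against 35.3% of all tested genes called lower and 32.9% called higher (limma with Benjamini-Hochberg adjustment). In anti-miR-106b muscles 80 fell and Rpl3l rose, against 40.8% lower and 37.9% higher. The median differences were -0.45 (0.73-fold) and -0.84 (0.557-fold), where all tested genes had medians of -0.0034 and -0.02. Every day 7 library lay below every day 3 library in 76 members in scrambled muscles (37.5% of all tested genes) and in 80 in anti-miR-106b muscles (41.7%). Rpl3l was above in both, as were 34.9% and 39.5% of all tested genes. These comparisons share libraries with those of the inhibitor: scrambled day 3 and anti-miR-106b day 3 are the starting points here and the 2 sides of the day 3 comparison. Among the members that did not pass in scrambled muscles were Rpl36, Rps10, Rpl7l1 and Rps27l, and in anti-miR-106b muscles only Rps27l did not pass.

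Rpl3 fell most of all members. It measured 6.62, 6.91 and 6.98 log2 CPM in scrambled and 7.06, 6.61 and 7.02 in anti-miR-106b muscles at day 7, against the day 3 values given above. All day 7 libraries lay below all day 3 libraries. The difference was -1.64 ± 0.12 in scrambled muscles, 0.321 of the day 3 level (limma, adjusted p = 6.5e-08), and -2.40 ± 0.12 in anti-miR-106b muscles, 0.19 of it (limma, adjusted p = 6.87e-10). Rpl3l at day 7 measured 9.46, 9.33 and 9.09 in scrambled and 9.17, 9.33 and 9.36 in anti-miR-106b muscles, above every day 3 library. It rose by 1.03 ± 0.10 (2.05-fold; limma, adjusted p = 1.19e-06) and by 1.95 ± 0.10 (3.86-fold; limma, adjusted p = 1.32e-09).

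The other members with the smallest p over time encode proteins of both subunits. Rps19 measured 6.83, 7.05 and 6.88 log2 CPM in scrambled and 7.07, 7.03 and 7.24 in anti-miR-106b muscles at day 7, below all its day 3 values. It changed by -0.86 ± 0.08 in scrambled and by -1.33 ± 0.08 in anti-miR-106b muscles (limma, adjusted p = 6.96e-07 and 3.51e-09). In the same order of arms, Rps12 changed by -0.83 ± 0.08 and -1.38 ± 0.08, Rps4x by -0.63 ± 0.07 and -1.11 ± 0.07, and Rpl12 by -0.65 ± 0.07 and -1.13 ± 0.07. In scrambled muscles Rpl10a changed by -0.73 ± 0.08, Rps18 by -0.62 ± 0.07 and Rps3a1 by -0.58 ± 0.07. In anti-miR-106b muscles Rps6 changed by -0.94 ± 0.06, Rps16 by -1.11 ± 0.07, Rpl10 by -0.94 ± 0.06 and Rpl27a by -1.08 ± 0.07. Rpl13a changed by -1.27 ± 0.12 in scrambled and -1.78 ± 0.12 in anti-miR-106b muscles, but over 50% of its transcript is shared with Gm45713. In scrambled muscles the stalk genes fell, with differences of -0.22 ± 0.08 for Rplp0, -0.34 ± 0.08 for Rplp1 and -0.25 ± 0.08 for Rplp2. The call for Rplp0 was lost without scrambled day 3 replicate 1 (limma, adjusted p = 0.0719) or scrambled day 7 replicate 3 (0.0648). The 5S particle genes Rpl5 and Rpl11 changed by -0.59 ± 0.06 and -0.50 ± 0.08 there (limma, adjusted p = 2.7e-06 and 5.84e-05).

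Rpl36 of the large subunit did not pass in scrambled muscles and fell in anti-miR-106b muscles. It measured 7.29, 7.33 and 7.38 log2 CPM at day 3 and 7.30, 7.56 and 7.34 at day 7, overlapping groups that differed by 0.07 ± 0.09 (limma, adjusted p = 0.538). In anti-miR-106b muscles it measured 7.85, 7.89 and 7.83 at day 3 and 7.11, 7.21 and 7.48 at day 7, a fall of 0.59 ± 0.09 with no overlap (limma, adjusted p = 3.53e-05). Its inhibitor difference changed by -0.66 ± 0.13 between the days (limma, adjusted p = 0.00402). Rps27l differed by 0.04 ± 0.10 and -0.02 ± 0.10 in the 2 arms, with overlapping groups in both, but by -0.36 and -0.64 with total-count scaling, where both passed. With that scaling Rps10 (-0.66) and Rpl7l1 (-0.46) also passed as lower in scrambled muscles.

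**Figure D3:**
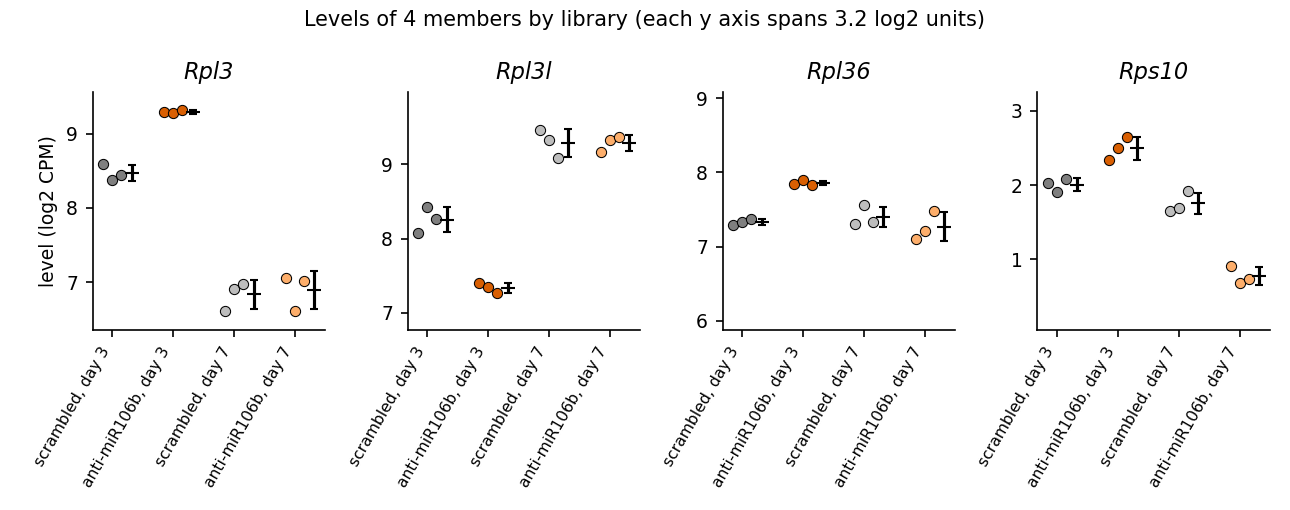
Levels (y axis, log2 CPM, each panel spanning the same number of log2 units) of Rpl3, Rpl3l, Rpl36 and Rps10 in the 4 groups (x axis). Points are libraries and bars the mean ± SD (n = 3). Rpl3 ranges from 6.61 to 9.31 and Rpl3l from 7.27 to 9.46 in the opposite order of groups, Rpl36 is highest in the anti-miR-106b day 3 group, at 7.83 to 7.89, and Rps10 is lowest in the anti-miR-106b day 7 group, at 0.69 to 0.91.

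The balance between Rpl3 and Rpl3l was also measured per length of transcript, so that both genes stand on the same scale. Rpl3 made up 59.2%, 49.6% and 53.5% of the pair in scrambled day 3 muscles and 78.9%, 79.4% and 80.7% in anti-miR-106b day 3 muscles. At day 7 it made up 12.4%, 16% and 19.1% in scrambled and 19.1%, 13.3% and 16.7% in anti-miR-106b muscles. The day 3 groups did not overlap, the day 7 groups did, and every day 7 library lay below every day 3 library. The sum of both genes had group means of 487 ± 8.1, 582 ± 4.9, 543 ± 49 and 545 ± 29 CPM per kb (SD, n = 3) in scrambled then anti-miR-106b muscles at day 3 and in the same order at day 7. Within arms, the Rpl3l to Rpl3 ratio was 11.4-fold higher at day 7, 3.51 on the log2 scale (two-sided exact permutation test within arms, p = 0.005, the smallest it can give; 0.02 after Benjamini-Hochberg adjustment over 4 tests). Within days, the ratio differed by a mean of -0.90 on the log2 scale between inhibitor and control (exact permutation test, p = 0.035, adjusted p = 0.07), which did not pass. The arms differed by -1.73 at day 3 and by -0.07 at day 7. That change of 1.67 had p = 0.07 in an exact permutation test added after the values were seen. The test permuted arm labels within each day, so its p refers to no arm difference on either day, not an equal difference on both.

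Rpl22 (chr4:152325742-152334071) and Rpl22l1 (chr3:28805436-28807424, both plus strand, GRCm38) encode related large-subunit proteins. Rpl22 measured 7.60, 7.59 and 7.61 log2 CPM in scrambled day 3, 7.90, 7.99 and 8.03 in anti-miR-106b day 3, 7.38, 7.42 and 7.23 in scrambled day 7 and 7.38, 7.32 and 7.52 in anti-miR-106b day 7 muscles. Rpl22l1 measured 6.08, 6.21 and 6.22, then 6.38, 6.43 and 6.49, then 5.64, 5.57 and 5.41, then 5.94, 5.79 and 5.96 in the same order. Both genes were highest in the anti-miR-106b day 3 group, and at day 7 the inhibitor and control groups were separate for Rpl22l1 but overlapped for Rpl22. Per length, Rpl22l1 made up 57.9% ± 1.3 of the pair in scrambled day 3, 56.0% ± 0.35 in anti-miR-106b day 3, 51.5% ± 0.99 in scrambled day 7 and 56.5% ± 1.1 in anti-miR-106b day 7 muscles (SD, n = 3). These shares rest on transcript lengths of 2048 bases for Rpl22 and 552 for Rpl22l1. In CPM Rpl22 was the higher gene in every library, so which gene is the larger part depends on these lengths. Differences of the log2 ratio between groups do not depend on them. The planned tests of the log2 ratio did not pass: -0.17 for day 7 against day 3 within arms (exact permutation test, p = 0.065, adjusted p = 0.0867) and 0.09 for inhibitor against control within days (p = 0.26, also adjusted). The arm difference was -0.11 at day 3 and 0.29 at day 7. An exact permutation test of that change of 0.40, added after the values were seen, gave p = 0.005, the smallest possible, and 0.01 adjusted over the 2 ratios. As for Rpl3l and Rpl3, this p refers to no arm difference on either day, so it is not specific to a change.

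For the other paralogues the ratio is given as a description. Rps27l was 0.209 of Rps27 per length in scrambled day 3, 0.171 in anti-miR-106b day 3, 0.276 in scrambled day 7 and 0.306 in anti-miR-106b day 7 muscles. Rpl7l1 was 0.0839, 0.0761, 0.115 and 0.111 of Rpl7 in the same order. Both ratios were lowest in the group with the largest share of reads on ribosomal protein genes. Rps4l stayed between 0.0125 and 0.0155 of Rps4x.

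**Figure D4:**
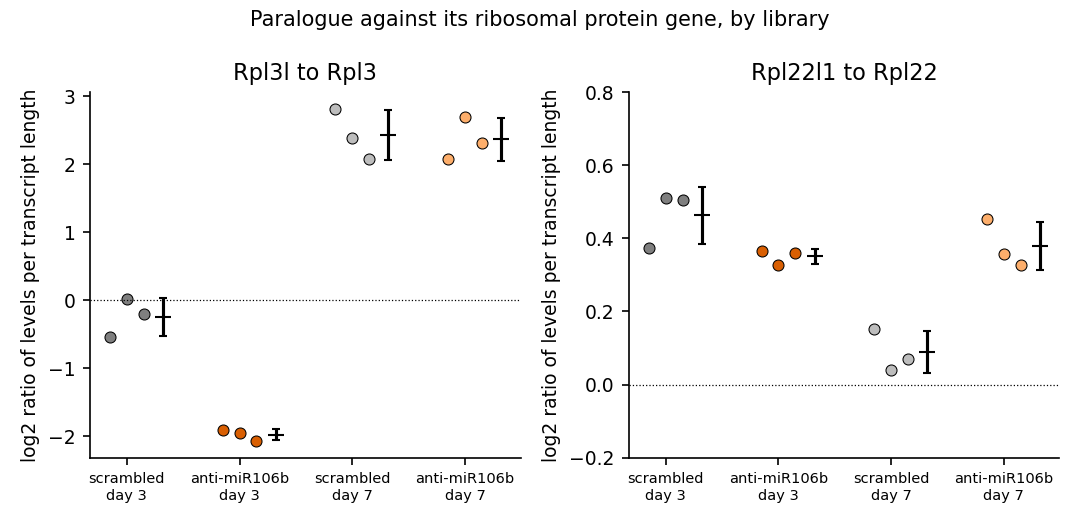
Log2 ratio of the paralogue to its ribosomal protein gene per transcript length (y axis, different spans in the 2 panels) in the 4 groups (x axis), with libraries as points and mean ± SD as bars (n = 3). Rpl3l to Rpl3 runs from -1.97 ± 0.08 in anti-miR-106b day 3 to 2.43 ± 0.37 in scrambled day 7 muscles, while Rpl22l1 to Rpl22 stays between 0.09 ± 0.06 and 0.46 ± 0.08 and is lowest in scrambled day 7 muscles.

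Members with and without the pyrimidine tract at their annotated start overlapped in every comparison. At day 3 the 35 members with a tract had a median inhibitor difference of 0.49 (range 0.25 to 0.66) and the 26 without one 0.40 (range -0.92 to 0.71). From day 3 to day 7 the medians were -0.47 and -0.47 in scrambled and -0.89 and -0.77 in anti-miR-106b muscles. These are descriptions without a test.

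Genes that act with the ribosomal proteins were counted in 5 lists, to be read against the share of all tested genes called. These shares were 16.3% higher and 19.4% lower at day 3, 32.9% and 35.3% over time in scrambled muscles, and 37.9% and 40.8% in anti-miR-106b muscles. Of 37 genes of ribosome assembly 15 rose (40.5%) and none fell with the inhibitor at day 3 (median 0.16; limma with Benjamini-Hochberg adjustment over all tested genes), none passed at day 7, and 4 rose and 16 fell over time in scrambled muscles. In anti-miR-106b muscles 9 rose and 18 fell. Fbl, the methyltransferase of rRNA, rose by 0.48 ± 0.07 at day 3 and fell by 0.65 ± 0.07 over time in scrambled muscles (limma, adjusted p = 0.000201 and 1.39e-06). Nhp2, of the particles that guide pseudouridylation, rose by 0.55 ± 0.12 at day 3, and Eif6, which keeps new large subunits from joining early, by 0.41 ± 0.09. Npm1, a nucleolar chaperone, changed over time by -0.80 ± 0.08 in scrambled and -0.98 ± 0.08 in anti-miR-106b muscles. Of 15 genes for transcription by RNA polymerase I, which makes the large rRNAs, 3 rose at day 3 (20%, near the share of all tested genes) and none fell (median 0.01): Polr1c by 0.39 ± 0.08, Cd3eap by 0.26 ± 0.08 and Ubtf by 0.19 ± 0.07. Over time 4 rose and 4 fell in scrambled muscles (26.7% each) and 5 rose and 4 fell in anti-miR-106b muscles (33.3% and 26.7%), below the shares of all tested genes.

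Of 20 translation factors and other genes whose mRNAs are known as TOP mRNAs, 11 rose (55%) and 1 fell (5%) at day 3 (median 0.24). The list includes Fau and Rack1, whose products belong to the small subunit but whose names lie outside the member pattern. Fau rose by 0.65 ± 0.08 and Rack1 by 0.49 ± 0.07 (limma, adjusted p = 0.000148 and 0.000217). Eef1b2, an elongation factor subunit, rose by 0.41 ± 0.07 and Eif3f, an initiation factor subunit, by 0.31 ± 0.06. Over time 8 of the 20 fell and 2 rose in scrambled muscles, with Eef1a1, the main elongation factor, at -1.54 ± 0.14, and 11 fell and 2 rose in anti-miR-106b muscles. Of 22 other initiation factors 7 rose (31.8%) and 5 fell (22.7%) at day 3 (median 0.08), among them the helicase Eif4a1, up by 0.47 ± 0.09, and the cap-binding Eif4e, which fell by 0.43 ± 0.08. Over time 9 rose and 4 fell in scrambled and 9 rose and 6 fell in anti-miR-106b muscles. Of 15 regulators 2 rose and 2 fell at day 3 (13.3% each, below the shares of all tested genes): Eif4ebp1, the mTOR-controlled inhibitor of Eif4e, rose by 0.42 ± 0.11 and Rptor by 0.19 ± 0.06, while Eif4ebp2 fell by 0.32 ± 0.09 and Larp4b by 0.20 ± 0.06. Over time 7 rose and 3 fell in scrambled and 8 rose and 3 fell in anti-miR-106b muscles. None of the genes on these 5 lists passed at day 7 (limma).

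**Figure D5:**
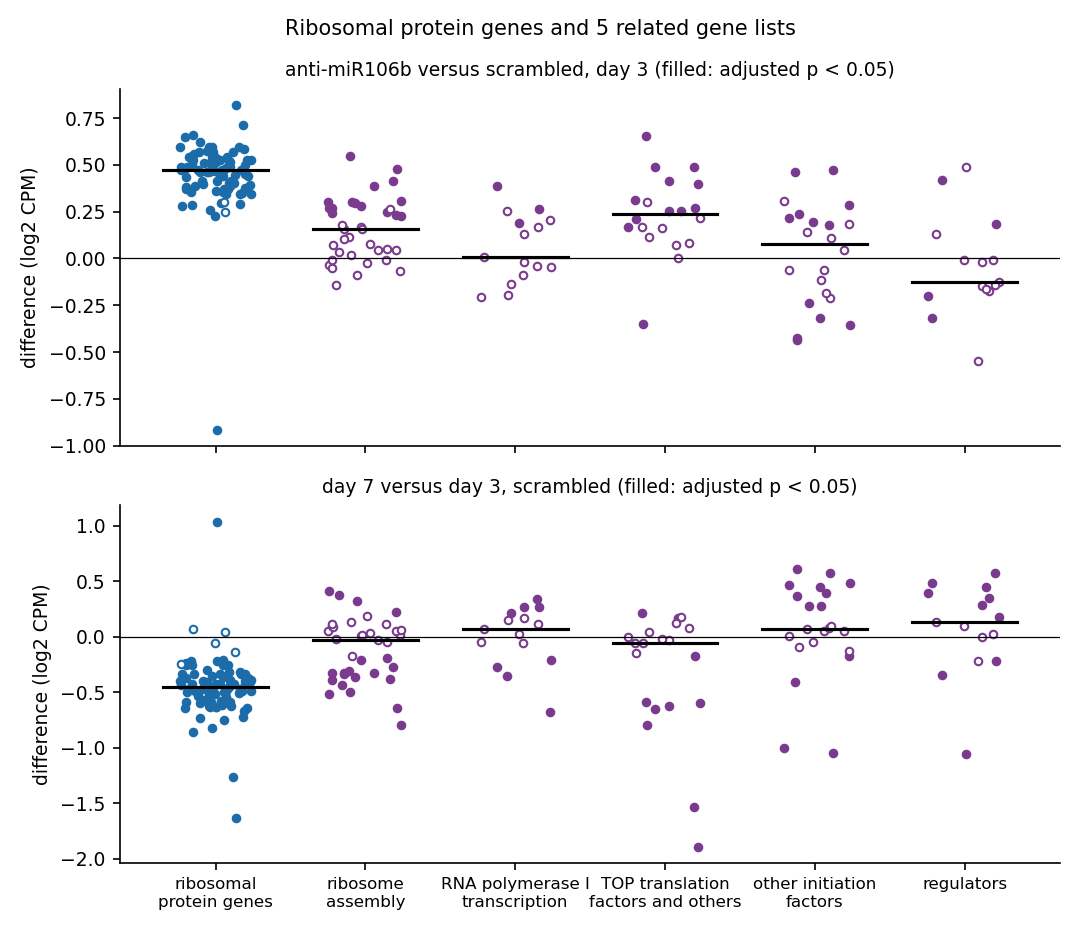
Differences (y axis, log2 CPM) for the ribosomal protein genes and 5 related gene lists (x axis), for the inhibitor at day 3 (upper panel) and for day 7 against day 3 in scrambled muscles (lower panel). Points are genes, filled where limma's adjusted p is under 0.05, and lines are medians. In the upper panel the member median of 0.47 exceeds those of ribosome assembly (0.16), RNA polymerase I transcription (0.01), TOP genes (0.24), other initiation factors (0.08) and regulators (-0.12).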

How the data were processed

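Expression was measured by RNA-seq in 12 muscle libraries, 3 per group. Per the labels' protocols, RNA was extracted with a Direct-zol kit and libraries were made with a TruSeq RNA kit. The deposited values are log2 CPM that the authors computed. The submitters' processing notes name mm10 as the build and, as tools, edgeR 3.20.9, limma 3.34.9, featureCounts, STAR, Trim Galore 0.4.3.1 and FastQC 0.72; order, settings and strandedness are not given in the sources used here, so genes cannot be separated from antisense partners. The design text once gives the later day as 5, while every label gives 7. Whole reads (within 0.001) and the authors' scaling factors, 0.803 to 1.316, were recovered from the values.

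Log2 CPM was analysed with limma 3.58.1 (R 4.3.3) with a variance trend, fitting 4 group means to the 12 libraries (8 residual and 5.59 prior degrees of freedom). Genes with at least 1 CPM in at least 3 libraries were tested (14063). Tests were two-sided and passed at a Benjamini-Hochberg adjusted p under 0.05. The method was tested on simulated data. Limma's p-values compare a difference with the spread between these animals, pooled over the 4 groups and moderated towards a trend over all tested genes. Paralogue ratios used the median length of the principal GENCODE M21 transcripts and exact permutation tests within strata. Start and microRNA sequences are RefSeq's (GRCm38.p6).

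Members and gene lists were chosen with earlier results of these data known. Named members were Rpl3, Rpl22, Rps10, the paralogues, stalk and 5S particle genes, the 3 highest and 3 lowest per length, and up to 10 passing members in each direction with the smallest p per comparison; others are marked as chosen after their values were seen, as were members that make up a count of 5 or fewer. Of each related list up to 4 genes with the smallest p are named per comparison. Alternatives were other scalings, filters, added counts, fits and left-out libraries.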

Additional observations from a re-analysis of the deposited data

Results flagged for a closer look

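The inhibitor difference changed from day 3 to day 7 in 55 members, and 28 of these have a difference printed in some comparison (limma interaction term with Benjamini-Hochberg adjustment, 3 animals per group). The largest downward change was that of Rps10, -1.47 on the log2 scale, from 0.49 at day 3 to -0.98 at day 7, in a gene with few reads and annotated copies. Rpl3 changed by -0.76, Rpl41 by -0.71 and Rpl36 by -0.66. Rps24 changed by -0.58, Rps12 by -0.55, Rpl28 by -0.54, Rpl29 by -0.53, Rpl14 by -0.53, Rpl19 by -0.52 and Rpl27a by -0.51. The stalk genes Rplp2, Rplp1 and Rplp0 changed by -0.50, -0.48 and -0.35. Rps16 changed by -0.50, Rpl12 by -0.48, Rps4x by -0.48, Rpsa by -0.47, Rps19 by -0.47, Rpl11 by -0.46 and Rps6 by -0.45. Rpl10 and Rpl10a changed by -0.40 each, Rpl5 by -0.39, Rpl34 by -0.37, Rpl22 by -0.31 and Rps18 by -0.29. Rpl3l alone among the 28 changed upward, by 0.91, from -0.92 at day 3 to -0.0036 at day 7.

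The calls for Rps18, Rpl22, Rplp0 and Rpl10a depended on single libraries. Rps18 did not pass when any 1 library of day 3 was left out, nor without scrambled replicate 2 or inhibitor replicates 1 or 2 of day 7. Rpl22 did not pass when any 1 scrambled library of day 3 was left out, or replicates 2 or 3 of the inhibitor arm at day 3, replicate 2 of scrambled at day 7, or replicates 1 or 2 of the inhibitor arm at day 7. Rplp0 did not pass without scrambled replicates 2 or 3 or inhibitor replicates 1 or 2 of day 3, nor without scrambled replicate 2 or inhibitor replicates 1 or 2 of day 7. Rpl10a did not pass without scrambled replicates 2 or 3 or inhibitor replicate 2 of day 3, nor without replicate 2 of either day 7 group. Rps18, Rpl22 and Rplp0 also did not pass with no filter on low values or with the replicate block, and Rps18 with voom weights. In the fits that ended a call, the adjusted p was 0.0529 to 0.12 for Rps18, 0.0648 to 0.0943 for Rpl22, 0.0637 to 0.0888 for Rplp0 and 0.055 to 0.0664 for Rpl10a (limma).

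The Rpl22l1 to Rpl22 ratio differed between inhibitor and control by -0.11 at day 3 and by 0.29 at day 7, a change of 0.40 (exact permutation test, p = 0.005, adjusted p = 0.01). The ratio of the anti-miR-106b muscles was lower than the scrambled mean in 3 of 3 libraries at day 3 and higher than every scrambled library in 3 of 3 at day 7. This test was added after the values were seen. It permuted arm labels within each day, so its p refers to no arm difference on either day and is not specific to a change.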

How the results depend on the processing

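Leaving out 1 library at a time gave 77 to 80 members higher with the inhibitor at day 3, 72 to 77 lower over time in scrambled muscles, 80 in anti-miR-106b muscles and 42 to 63 with a smaller inhibitor difference at day 7. Other settings (no filter on low values, 5 CPM added, total-count or quantile scaling, replicate number as a block, the 2 groups alone and, added after seeing the data, voom weights on recovered reads and median-of-ratios scaling) gave 79 to 81, 75 to 81, 80 to 81 and 43 to 78. Tests with edgeR and DESeq2, planned for counts, were not run because the deposited values are log2 CPM.

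At day 7 between 0 and 1 member was lower when a library was left out, and between 0 and 1 higher. The call for Rps10 was lost, leaving 0 lower, with the 2 groups alone and with the replicate block. The call that appeared, without scrambled replicate 1 or anti-miR-106b replicate 2, was Rpl22l1. All tested genes gave 9 calls at day 7, but 15 with no filter, 46 with 5 CPM added, 28 with total counts, 17 with quantile normalization, 16 with voom weights, 22 with median-of-ratios scaling, 2 with the 2 groups alone and 0 with the replicate block. With 1 library left out they numbered 0 to 457. The change between days gave 3134 calls over all tested genes and 2063 without scrambled day 3 replicate 2. The cause of these differences was not tested.

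Residuals of same-numbered libraries of 1 day correlated between -0.0424 and 0.1439. Differently numbered libraries were not compared, so these values cannot decide whether the numbers pair the libraries. With the replicate block 43 members had a smaller difference at day 7, and the arm difference of the Rpl3l to Rpl3 ratio, -0.90, had p = 0.125 (exact permutation test). Without a library this difference ran from -0.99 to -0.80, with raw p above the threshold without replicate 1 of either day 7 group, and the day difference from 3.41 to 3.59. The day difference of the Rpl22l1 to Rpl22 ratio ran from -0.196 to -0.160, and its raw p passed without anti-miR-106b day 7 replicate 1. Without mitochondrially encoded reads the read shares were 3.09% and 4.73% at day 3 and 1.78% and 1.86% at day 7.

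Values near 0 changed sign. With 1 library left out, the inhibitor difference at day 7 ran from -0.047 to 0.21 for Rpl3, from -0.11 to 0.081 for Rpl3l, from -0.0028 to 0.098 for Rplp0 and from -0.15 to 0.010 for Rplp2. That of Rpl3l was 0.0097 with median-of-ratios scaling and that of Rpl22 -0.0051 with quantile normalization. Over time Rps27l ran from -0.076 to 0.14 in scrambled and from -0.087 to 0.028 in anti-miR-106b muscles, and its change between days from -0.16 to 0.058. In scrambled muscles Rps27l was -0.36 with total counts (limma, adjusted p = 0.0013) and -0.070 with quantile normalization, with which Rps10 was 0.15. In anti-miR-106b muscles Rps27l was 0.025 with median-of-ratios scaling. The change between days of Rpl22l1 was -0.12 with total counts and -0.016 with quantile normalization. Depth limits Rps10 first, which had 45 to 252 reads per library.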
